A study of Mus musculus with 8 samples.

Results

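Ribosome footprints were set against total RNA, gene by gene, in mouse embryonic stem cells in which Mettl6 had been knocked out (KO). Genes were taken where the 2 KO total RNA libraries averaged at least 5 CPM, a read count scaled to the size of its library, after the row of Rn45s, the ribosomal RNA precursor, had been removed and every library rescaled to what remained. Of 23818 listed gene symbols 10525 met this rule. The RNA value that chose a gene is also the denominator of its ratio, while no footprint value was used in the choice. The KO cells are clone G6 of the J1 strain line, and the wild-type (WT) cells are J1 cells with intact Mettl6. Both grew in 2i medium plus LIF and were given cycloheximide, which stalls ribosomes on the mRNA, for 10 min before lysis. KO footprints, KO total RNA, WT footprints and WT total RNA have 2 libraries each, described as biological replicates. The KO is 1 clone, so the loss of Mettl6 and the history of that clone cannot be told apart. Footprints were the short RNA fragments left on single ribosomes after digestion with RNase A and RNase T1.

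A ribosome covers a short stretch of the mRNA it is reading, so the number of footprints on a gene follows how many ribosomes are on its messages, and dividing by the gene's RNA gives a measure of ribosome load per message. Footprints lie almost wholly in coding sequence, while RNA reads come from the whole transcript, untranslated regions included. METTL6 places 3-methylcytidine (m3C) in the anticodon loop of serine tRNAs, and tRNAs deliver the amino acids that ribosomes join.

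Depth was estimated by taking the most frequent nonzero CPM value of a library as the worth of a read. It was 2437859 and 1835677 reads in KO footprints and 1301531 and 1524097 reads in KO total RNA. At that depth 5 CPM corresponds to 6.12 and 7.35 reads in the KO total RNA libraries, and Rn45s had held 38.3% and 42.6% of KO footprints and 5.78% and 3.39% of KO total RNA. Over the members, log2(CPM + 1) correlated at r = 0.970 between the KO footprint libraries and at 0.940 between the KO RNA libraries, and at 0.729 to 0.745 between a footprint and an RNA library. Mettl6 itself missed the cutoff, with 8.65 and 7.60 CPM in KO footprints and 2.45 and 0 CPM in KO total RNA, against 6.30 and 11.2 CPM in WT footprints and 26.3 and 29.0 CPM in WT total RNA. Its KO RNA lay below its WT RNA in both libraries, while its footprint values overlapped between genotypes, and which bases clone G6 lacks is not given in the sources used here. All 10 stem cell markers examined were members. Of 8 fibroblast or feeder markers 5 were at 0 in both KO RNA libraries, and the summed level of the 8 was 19.3 and 12.3 CPM in KO footprints and 19.6 and 5.44 CPM in KO total RNA. Footprints were set against RNA of cells of the same genotype throughout. In such bulk samples fewer cells of a type and less RNA per cell cannot be told apart.

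In KO cells 2048 members had more footprints than their RNA level and 4077 had fewer, at an adjusted p below 0.05 (limma-trend on log2(CPM + 1), Benjamini-Hochberg). These are 19.5% and 38.7% of the members, 58.2% together, and they are the background for every count below. The log2 ratio of footprints to RNA had a median of -0.38 and ran from -10.63 to 5.59, with its middle 50% between -1.29 and 0.42 and a median standard error (SE) of 0.28. Footprints exceeded RNA by a log2 ratio of at least 1 in 1209 called members and fell short by as much in 3141. The share of members called moved with RNA level, and was 36.7% in the quintile of members with the least RNA and 77.8% in the quintile with the most, where the median SE was 0.50 and 0.16. Since CPM is relative within a library, the zero of this scale is set by the scaling. With both kinds of library centred on their medians the split was 3120 higher and 2798 lower, with quantile normalization 2835 higher and 3023 lower, and with the CPM as deposited, Rn45s kept, 827 higher and 6338 lower around a median of -1.0. List medians are therefore given beside the median of all members.

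**Figure D1:**
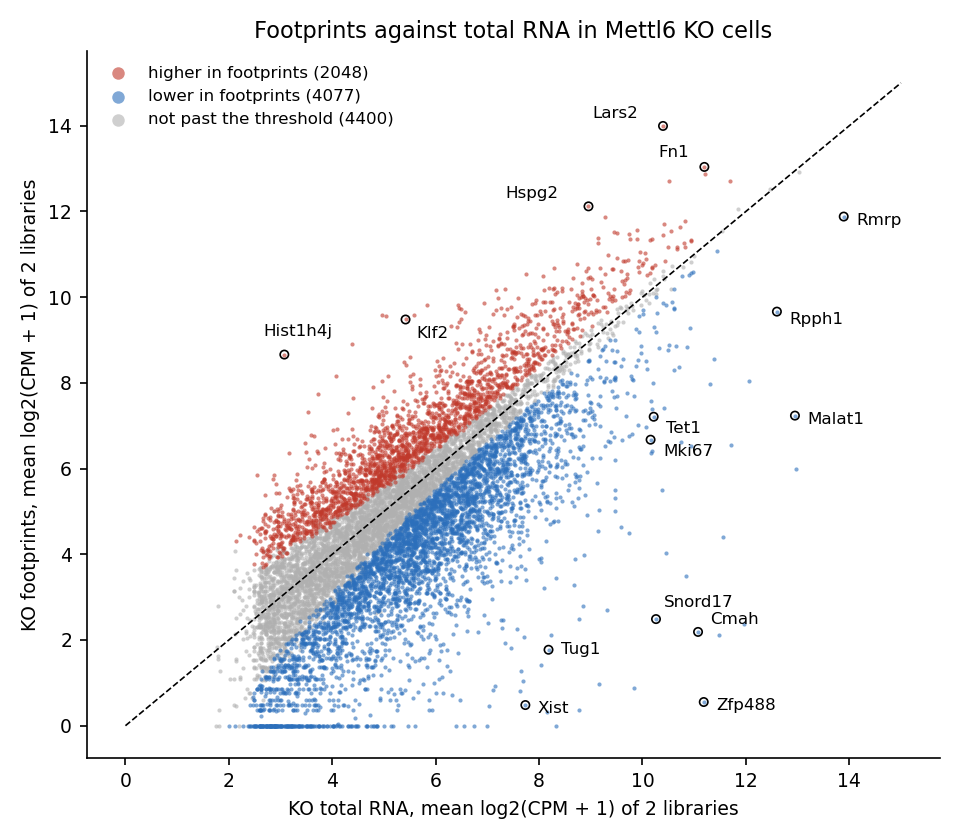
Mean log2(CPM + 1) of the 2 KO footprint libraries (vertical) against that of the 2 KO total RNA libraries (horizontal) for the 10525 members, with the 2048 higher in footprints in red, the 4077 lower in blue and the others in grey. The dashed line marks equal values, and the circled genes, such as Hist1h4j at a log2 ratio of 5.59 and Zfp488 at -10.63, lie far from it.

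Transcripts known not to code for protein lay at the low end. Of 189 members classed as long noncoding RNA 4 were higher in footprints and 149 lower, with a median log2 ratio of -2.65, against 2033 higher and 3850 lower of 10221 protein-coding members, whose median was -0.35. Of 67 pseudogene members 7 were higher and 44 lower (median -2.25), and of the small or catalytic RNAs 1 of 22 was higher and 18 were lower (median -4.0). All 14 members of the list of nuclear and imprinted long noncoding RNAs were lower, with a median of -4.12. Malat1, a nuclear speckle RNA, had 113 and 199 CPM in KO footprints and 8383 and 7460 CPM in KO total RNA, a log2 ratio of -5.71 ± 0.18 (SE, 2 libraries of each kind; limma-trend adjusted p = 4.2e-13). Tug1 had 2.03 and 2.85 CPM in KO footprints and 281 and 299 CPM in KO total RNA (-6.41 ± 0.25). Both RNAs lay far below their own RNA level in both footprint libraries. Neat1, the scaffold of paraspeckles, was also lower, with 2.66 and 12.3 CPM in KO footprints and 58.8 and 77.5 CPM in KO total RNA, a ratio of -3.29 that became -2.36 without footprint library 1 and -4.23 without footprint library 2. Xist, the RNA that coats the inactive X chromosome, had 0 and 0.950 CPM in KO footprints and 250 and 179 CPM in KO total RNA. Tsix lies antisense to it over 22889 bases, and with no strand stated for the counting, reads of the pair cannot be told apart.

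The host genes of small nucleolar RNAs, most of which code for little or nothing in their exons, had a median of -1.91, with 0 of 13 higher and 9 lower; Cyb5r4, 1 of the 9, is protein-coding (-0.85 ± 0.21). Gas5, a host gene whose own transcript is known to be drawn into ribosomes and then degraded, had 21.3 and 32.3 CPM in KO footprints and 310 and 314 CPM in KO total RNA (-3.52 ± 0.21, limma-trend adjusted p = 6.1e-10). Structured small RNAs had a median of -4.06, with 1 of 17 higher and 13 lower. The RNA of RNase MRP, Rmrp, which cuts ribosomal RNA precursors, was among the most abundant rows of both kinds, with 3691 and 3851 CPM in KO footprints and 15324 and 15096 CPM in KO total RNA. Snord17, a small nucleolar RNA, had 2.0 and 9.50 CPM in KO footprints and 1190 and 1265 CPM in KO total RNA (-7.77 ± 0.42). The exception was Rnu12, a small nuclear RNA of the minor spliceosome, with 65.2 and 120 CPM in KO footprints and 22.1 and 8.16 CPM in KO total RNA (2.62 ± 0.43, limma-trend adjusted p = 7.4e-05); it was named after its value was seen. Without 1 KO library the ratio of Snord17 was -6.87 (without footprint library 1) or -8.68 (without footprint library 2), and that of Rnu12 was 3.29 (without RNA library 1) or 1.96 (without RNA library 2).

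Replication-dependent histone genes stood at the other end. These genes supply the histones needed in S phase, and their mRNAs end in a conserved stem-loop in place of a poly(A) tail; whether the RNA libraries were made from poly(A) RNA is not given in the sources used here. Of 58 members 55 were higher in footprints and 2 lower, with a median log2 ratio of 1.89. Summed by class, footprints exceeded RNA by 4.46-fold for H4, 4.28-fold for H2A, 3.94-fold for H3, 2.81-fold for H2B and 1.76-fold for the linker histone H1. For H4 the sums were 7423 and 5949 CPM in KO footprints and 1571 and 1425 CPM in KO total RNA, and for H1 they were 4011 and 3402 CPM in KO footprints and 2114 and 2088 CPM in KO total RNA. Both footprint libraries lay above both RNA libraries in each of the 5 classes. These class sums are the firmer values, because near-identical copies share their sequence. All 28-base stretches of the coding sequence of Hist1h4n occur in other genes, and the counting can then move reads between copies.

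Hist2h3c1 had 953 and 740 CPM in KO footprints and 91.9 and 86.1 CPM in KO total RNA (3.22 ± 0.15, limma-trend adjusted p = 3.2e-11). Hist1h4j, at chr13:21735064-21735837 on GRCm38, had the highest ratio of all members, with 720 and 226 CPM in KO footprints and 8.04 and 6.84 CPM in KO total RNA (5.59 ± 0.44). Its footprint libraries differed from each other by far more than its RNA libraries did, and the ratio was 4.75 without footprint library 1 and 6.42 without footprint library 2. Hist1h4n had 748 and 791 CPM in KO footprints and 61.9 and 14.7 CPM in KO total RNA (4.62 ± 0.54), and the ratio was 5.62 without RNA library 1 and 3.62 without RNA library 2. The members that were lower were Hist1h4m (-3.07 ± 0.35) and Hist1h2bn (-0.66 ± 0.18), and Hist1h4m shares all its 28-base stretches with other H4 genes. The ratio of Hist1h4m was -3.89 without footprint library 1 and -2.25 without footprint library 2, and the call of Hist1h2bn ended without footprint library 2 (-0.37), RNA library 1 (-0.67) or RNA library 2 (-0.65) and with medians centred (-0.24). Histone variants, which are also made outside S phase, were higher in 6 of 10 and lower in 0 of 10 members, with a median of 0.58. H2afx, the variant phosphorylated at DNA breaks, had 837 and 786 CPM in KO footprints and 285 and 268 CPM in KO total RNA (1.55 ± 0.12).

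The stem-loop that ends these histone mRNAs is shown for 1 gene of each class. Each is the gene with the highest ratio among members of its class where the stem-loop was found. Most histone members with an annotated 3′ window carried it, and it was not found in the other coding members. The sequences are from GENCODE transcripts on GRCm38, 5′ to 3′, with the loop and its stem in capitals. Either of the spellings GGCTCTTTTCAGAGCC and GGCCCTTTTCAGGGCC, searched on the transcript strand, was found after the stop codon in 29 of 44 histone members with an annotated 3′ window (65.9%) and in 0 of 10041 other protein-coding members.
Hist1h1d (H1, log2 ratio 1.17): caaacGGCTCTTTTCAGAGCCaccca
Hist1h2ac (H2A, log2 ratio 3.08): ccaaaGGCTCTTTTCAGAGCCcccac
Hist1h2bm (H2B, log2 ratio 3.08): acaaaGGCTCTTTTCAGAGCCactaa
Hist2h3c1 (H3, log2 ratio 3.22): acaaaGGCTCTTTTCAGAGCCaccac
Hist1h4n (H4, log2 ratio 4.62): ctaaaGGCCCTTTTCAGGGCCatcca
The H4 gene differs from the others in the stem, and the loop letters are the same in all 5. Hist1h1d, on chromosome 13, had the lowest ratio of the 5, with 1137 and 960 CPM in KO footprints and 455 and 470 CPM in KO total RNA.

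Ribosomal protein genes carry a run of pyrimidines at the transcript start, the TOP motif, through which mTOR is known to control their translation. In KO cells 27 of 51 large-subunit members were higher in footprints and 9 lower (median 0.44), and 18 of 34 small-subunit members were higher and 9 lower (median 0.38). Fau, the precursor of a small-subunit protein, had 1147 and 1154 CPM in KO footprints and 261 and 285 CPM in KO total RNA (2.07 ± 0.12, limma-trend adjusted p = 2.7e-10). Rplp2, a protein of the ribosomal stalk, had 2945 and 3136 CPM in KO footprints and 979 and 931 CPM in KO total RNA (1.67 ± 0.13). Every footprint value of both genes lay above both of its RNA values, though 82.6% of the 28-base coding stretches of Rplp2 also occur in Wdr89, so reads may have been divided. Rpl36 (1.72 ± 0.12) was the highest of the large-subunit members. Of the small-subunit list only Rps4l (2.76 ± 0.13), which is annotated as a transcribed pseudogene, lay above Fau. At the low end Rps27 had 359 and 356 CPM in KO footprints and 644 and 778 CPM in KO total RNA (-0.98 ± 0.13).

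The low values of 3 other genes depended on whether rows named as their pseudogene copies were counted with them. Rpl31 had 303 and 368 CPM in KO footprints and 944 and 938 CPM in KO total RNA, a log2 ratio of -1.49 ± 0.13. The row of its copy Rpl31-ps12 held 680 and 571 CPM in KO footprints and 0 and 1.82 CPM in KO total RNA, and with the copies' rows added the ratio of Rpl31 was 0.03 (limma-trend adjusted p = 0.85). For Rpl14 the ratio of -0.93 ± 0.14 became 0.34 (limma-trend adjusted p = 0.045) with Rpl14-ps1 added, and for Rps15a -1.20 ± 0.15 became 0.03 (limma-trend adjusted p = 0.85) with Rps15a-ps4 and Rps15a-ps6 added. The lower call of these 3 genes therefore ends when the copies are counted with them. Of the 28-base stretches of the Rpl31 coding sequence 76.4% occur in its copy, and for Rpl14 the share was 86.4%.

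The first 24 bases from the RefSeq start are shown for Rps27, whose ratio was low, and 3 genes with high ratios, since all 4 carry the motif. They are read from GRCm38.p6, 5′ to 3′ on the gene's strand, with the run of pyrimidines at the start in capitals.
Rps27 (log2 ratio -0.98, chr3:90213625-90213648): CCTTTCCggcggtgacgacctccc
Rplp2 (log2 ratio 1.67, chr7:141447651-141447674): CTTTCgccgccggacgccgccgag
Rps10 (log2 ratio 1.93, chr17:27635221-27635244): CTTCCTTTCCagcctccgcctcgg
Fau (log2 ratio 2.07, chr19:6057947-6057970): CTTCCTCTTTCTTgactccatctt
The run is 7 bases long in Rps27 and 5, 10 and 13 in Rplp2, Rps10 and Fau. A start of C and 4 pyrimidines at the annotated first base was found in 13 of 63 ribosomal protein members with a RefSeq start (20.6%) and in 183 of 7881 protein-coding members (2.32%). The median log2 ratio was 0.95 with such a start and 0.24 without it among the ribosomal protein members (0.98 and 0.27 in the large subunit, 0.22 and 0.10 in the small subunit), and -0.33 with it and -0.36 without it among the other coding members.

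Other genes of the translation machinery were spread over both directions. The list of other TOP mRNAs had 9 of 19 higher and 4 lower, with a median of 0.10, which was 0.48 above the median of all members but 0.11 below it after quantile normalization. Initiation factors had 19 of 55 higher and 17 lower (median -0.08), and elongation and termination factors 5 of 16 higher and 3 lower (median 0.04). Eif4a2, a helicase that unwinds mRNA leaders, was among the lowest, with 198 and 183 CPM in KO footprints and 1037 and 1271 CPM in KO total RNA (-2.59 ± 0.13, limma-trend adjusted p = 6.5e-11). Eif5a2 had 2.66 and 7.60 CPM in KO footprints and 33.5 and 41.5 CPM in KO total RNA (-2.77 ± 0.42), and its ratio was -2.15 without footprint library 1 and -3.39 without footprint library 2. Its paralog Eif5a, which helps ribosomes past difficult peptide bonds, had 662 and 690 CPM in KO footprints and 355 and 348 CPM in KO total RNA (0.94 ± 0.11). The paralogs thus lay on opposite sides of their RNA level on this scale, but with the CPM as deposited the Eif5a ratio was 0.26 and its call ended (limma-trend adjusted p = 0.12). Eif3f (1.64 ± 0.16) and Eif4ebp2 (1.72 ± 0.23) were the highest initiation genes, and Hbs1l, which rescues stalled ribosomes, was low (-2.0 ± 0.22). Eef1a1, which carries charged tRNAs to the ribosome, had 8142 and 7451 CPM in KO footprints and 8003 and 8662 CPM in KO total RNA, and the groups overlapped (-0.10 ± 0.11, limma-trend adjusted p = 0.51). The side it lay on depended on scaling, at 0.32 with medians centred and -0.78 with the CPM as deposited, and 29.1% of its 28-base coding stretches occur in Gm6548.

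Cytosolic aminoacyl-tRNA synthetases and their scaffold proteins, which load amino acids onto tRNAs, were higher in 15 of 23 and lower in 1 of 23 members (median 0.58). Vars, the valine enzyme, had 580 and 589 CPM in KO footprints and 192 and 144 CPM in KO total RNA (1.81 ± 0.14). The lower one was Eprs, which serves glutamate and proline, with 411 and 452 CPM in KO footprints and 658 and 543 CPM in KO total RNA (-0.47 ± 0.13, limma-trend adjusted p = 0.0054). That call ended without KO footprint library 1, without KO RNA library 1, with medians centred and with a constant prior variance. Of the m3C genes besides Mettl6, 4 were members, and 0 were higher and 2 lower (median -0.81). Mettl2, the enzyme for m3C on threonine and arginine tRNAs, had 14.5 and 14.7 CPM in KO footprints and 50.6 and 35.4 CPM in KO total RNA (-1.47 ± 0.25, limma-trend adjusted p = 9.6e-05). Mettl8, the mitochondrial m3C enzyme, had 7.29 and 10.4 CPM in KO footprints and 17.1 and 19.7 CPM in KO total RNA (-0.99 ± 0.38, limma-trend adjusted p = 0.036). Both kinds of library were separate for each gene, but the call of Mettl8 ended without KO footprint library 1 or either KO RNA library, with medians centred or quantile normalization, and with the KO libraries fitted alone. Sars, the serine enzyme that partners METTL6, had 248 and 233 CPM in KO footprints and 159 and 218 CPM in KO total RNA and missed the threshold (0.36 ± 0.15, limma-trend adjusted p = 0.058), and so did Dalrd3, a partner of METTL2 (-0.63 ± 0.29, limma-trend adjusted p = 0.079). Sars passed it without KO RNA library 2 (0.59), with medians centred (0.78), with quantile normalization (0.42) and with the members fitted alone (0.36), but its ratio was -0.31 with the CPM as deposited. Dalrd3 passed it without KO RNA library 1 (-0.84) and with the CPM as deposited (-1.27).

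Among genes known for control at the level of translation, the lists of upstream frames and of polyamine genes had medians below that of all members, and the lists of iron genes and selenoproteins above it. The list of genes with upstream reading frames or a role in the stress response had 3 of 18 higher and 12 lower (median -0.84). Atf4, the transcription factor whose upstream frames hold back its translation in unstressed cells, had 166 and 179 CPM in KO footprints and 303 and 335 CPM in KO total RNA (-0.88 ± 0.17, limma-trend adjusted p = 0.00032). Tmem184c was lower still (-1.87 ± 0.35), while Ucp2 (1.56 ± 0.24) and Eif1, the factor that selects start codons (1.03 ± 0.15), were higher; the Eif1 call ended with the CPM as deposited (0.35). Polyamine genes, several of which are governed by upstream frames or frameshifting, had 3 of 11 higher and 6 lower (median -0.76). Amd1, which makes the aminopropyl donor, had 73.2 and 55.1 CPM in KO footprints and 230 and 219 CPM in KO total RNA (-1.81 ± 0.18). Odc1, the first enzyme of the pathway, was lower (-0.84 ± 0.13), as was its protector Azin1 (-0.61 ± 0.16), while spermidine synthase Srm (1.79 ± 0.17) and the antizyme Oaz1 (0.66 ± 0.15) were higher. The Azin1 call ended with medians centred (-0.19) and with quantile normalization (-0.37). Iron genes had 3 of 11 higher and 4 lower (median -0.14). Fth1, the ferritin heavy chain, had 223 and 282 CPM in KO footprints and 154 and 174 CPM in KO total RNA (0.62 ± 0.22, limma-trend adjusted p = 0.029), a call that ended on leaving out any 1 of the KO libraries or of the WT RNA libraries, with no filter and with a constant prior variance. Cdc42bpa (-4.36 ± 0.44) and Ireb2, an RNA-binding sensor of iron (-1.11 ± 0.17), were lower, and the ratio of Cdc42bpa was -5.13 without footprint library 1 and -3.60 without footprint library 2. Selenoproteins, which read a stop codon as selenocysteine, had 2 of 15 higher and 2 lower (median 0.05), with Gpx3 at 0.74 ± 0.28 and Selt at -1.07 ± 0.14. The Gpx3 call ended without footprint library 2 (0.49), RNA library 1 (0.75) or RNA library 2 (0.73) and with the CPM as deposited (0.08).

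Genes of large protein complexes and of central metabolism were mostly above the median of all members. Nuclear-encoded subunits of oxidative phosphorylation had 58 of 80 higher and 4 lower (median 0.91), glycolysis 14 of 17 higher and 0 lower (median 0.97), the proteasome 28 of 46 higher and 1 lower (median 0.73), and mitochondrial ribosomal proteins 39 of 77 higher and 7 lower (median 0.56). Uqcrq, a small subunit of respiratory complex III, had 296 and 275 CPM in KO footprints and 14.7 and 17.01 CPM in KO total RNA (4.09 ± 0.22, limma-trend adjusted p = 1.9e-10). Cox8a, of complex IV, had 801 and 929 CPM in KO footprints and 117 and 201 CPM in KO total RNA (2.48 ± 0.19). Both were well separated, whereas Cox6c of the same complex was lower, with 154 and 174 CPM in KO footprints and 288 and 355 CPM in KO total RNA (-0.96 ± 0.15). Among proteasome genes, Psmb5, its chymotrypsin-like subunit (2.41 ± 0.16), and the ubiquitin receptor Adrm1 (2.13 ± 0.17) were the highest at 20 CPM of RNA or more, and the lower member was Psme4, an activator that caps the core, with 284 and 282 CPM in KO footprints and 882 and 879 CPM in KO total RNA (-1.63 ± 0.11). Mrpl43 (2.15 ± 0.21) was the highest and Mrpl50 (-1.01 ± 0.28) the lowest gene of the mitochondrial ribosome at 20 CPM of RNA or more, while Mrps12, with less RNA, reached 2.40. The Mrpl50 call ended without KO footprint library 2 or KO RNA library 2, and with medians centred or quantile normalization. In glycolysis, Gapdh had 7244 and 6152 CPM in KO footprints and 1507 and 1426 CPM in KO total RNA (2.19 ± 0.11), and enolase Eno1 was at 2.41 ± 0.12. Pseudogenes or copies hold all 28-base stretches of the Gapdh coding sequence and 87.9% of those of Eno1, so reads of these may have been divided.

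Secreted and folding proteins followed. Extracellular matrix and basement membrane genes had 18 of 20 higher and 0 lower, with a median of 1.40. Fn1, fibronectin, had 8176 and 8664 CPM in KO footprints and 2520 and 2186 CPM in KO total RNA (1.84 ± 0.12, limma-trend adjusted p = 1.3e-09). Hspg2, the basement membrane protein perlecan, had 4016 and 4925 CPM in KO footprints and 547 and 449 CPM in KO total RNA (3.16 ± 0.15). Lamb2 (2.49 ± 0.19) and Lamc1 (0.94 ± 0.11), laminin chains, were higher too, but the Lamc1 call ended with the CPM as deposited (0.26). Cytosolic chaperones had 13 of 25 higher and 1 lower (median 0.44), and genes of folding and translocation in the endoplasmic reticulum 18 of 30 higher and 4 lower (median 0.51). Hspb1, a small heat shock protein, had 1537 and 1430 CPM in KO footprints and 224 and 205 CPM in KO total RNA (2.78 ± 0.13). The HSP90 pair differed, since Hsp90ab1 had 7016 and 6366 CPM in KO footprints and 3274 and 3341 CPM in KO total RNA (1.01 ± 0.11), while Hsp90aa1 had 5796 and 5937 CPM in KO footprints and 5502 and 5766 CPM in KO total RNA (0.06 ± 0.12, limma-trend adjusted p = 0.71). With the CPM as deposited the pair stood at 0.33 and -0.62, and the Hsp90ab1 call ended; Hsp90aa1 was at 0.48 with medians centred and at -0.41 with quantile normalization. Among the genes of the endoplasmic reticulum Pdia3 was at 1.5 ± 0.13 and Edem1, which hands misfolded proteins on for degradation, at -2.35 ± 0.20. Cholesterol genes had 7 of 22 higher and 5 lower (median 0.02), with Hsd17b7 the lowest (-2.04 ± 0.37), and solute carriers had 26 of 160 higher and 44 lower (median -0.05), at 20 CPM of RNA or more from Slc3a2 (1.66 ± 0.15) to Slc25a36 (-2.68 ± 0.17).

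**Figure D2:**
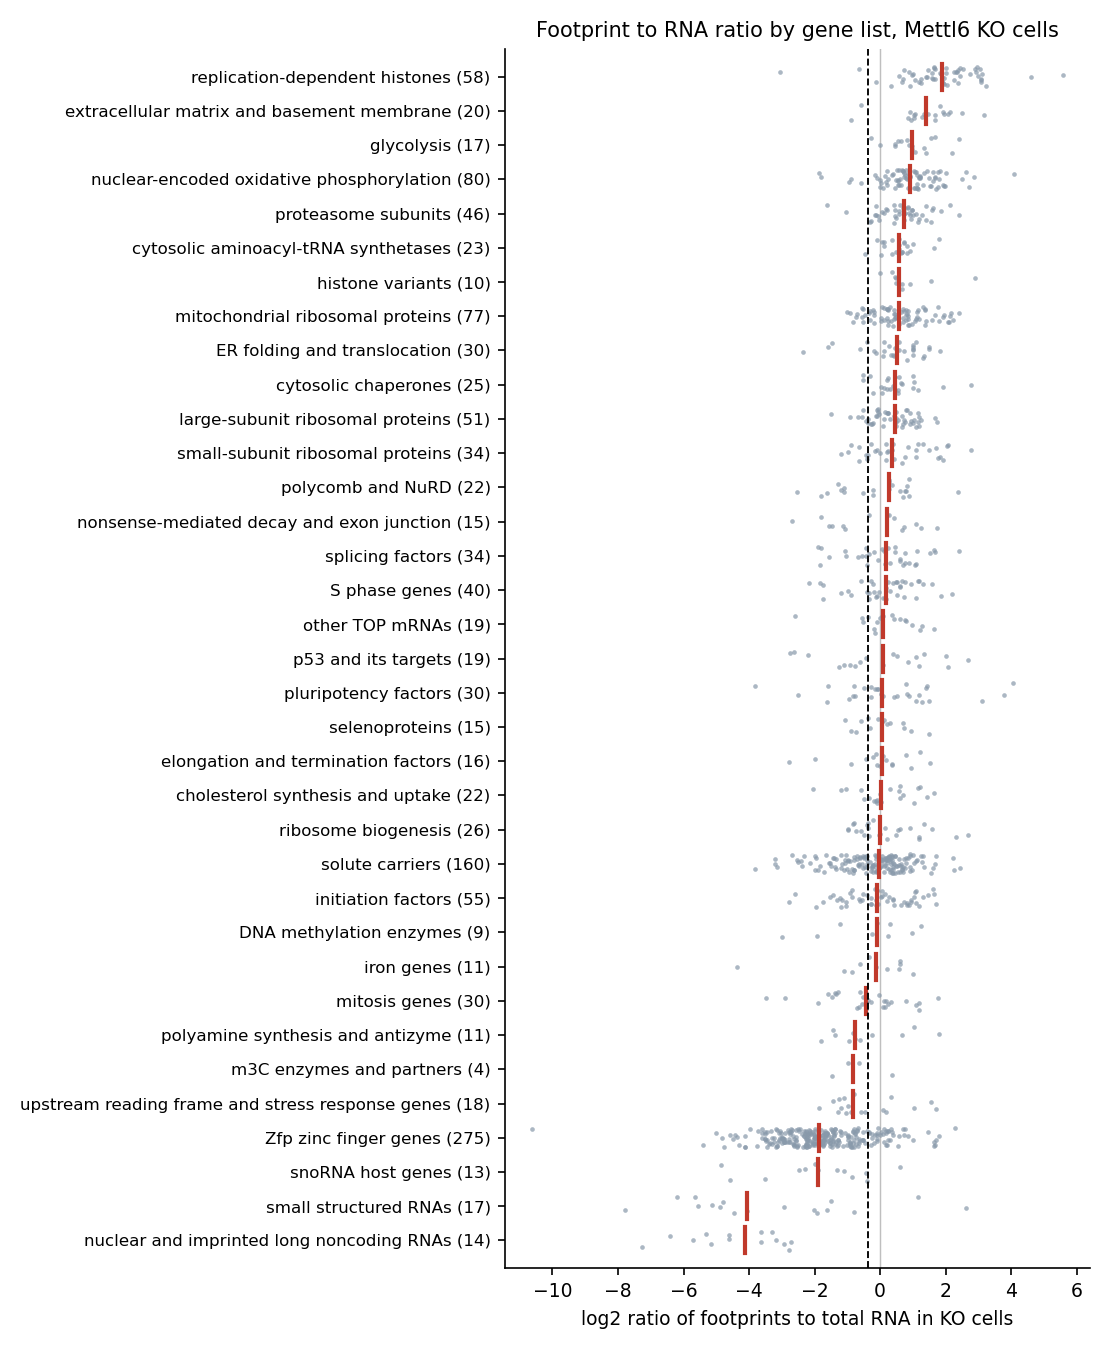
Log2 ratio of footprints to total RNA in KO cells for each member (points) of 35 gene lists, with the list median as a red bar, the number of members in parentheses and the median of all members, -0.38, as a dashed line. Replication-dependent histones lie highest with a median of 1.89, and nuclear and imprinted long noncoding RNAs lowest with -4.12.

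Pluripotency genes, which hold embryonic stem cells in their state, had log2 ratios on both sides of 0, from -3.82 to 4.06. Of 30 members 14 were higher and 8 lower, with a median of 0.05. Klf2, a transcription factor of the naive state at chr8:72319033-72321656 on GRCm38, had 709 and 716 CPM in KO footprints and 40.0 and 43.5 CPM in KO total RNA (4.06 ± 0.14, limma-trend adjusted p = 1.4e-12). Klf5 had 393 and 386 CPM in KO footprints and 52.3 and 38.1 CPM in KO total RNA (3.10 ± 0.18), and Utf1, a chromatin protein of these cells, had 173 and 143 CPM in KO footprints and 8.17 and 13.6 CPM in KO total RNA (3.78 ± 0.24). Both footprint values of all 3 genes lay far above both RNA values. Pou5f1 had 766 and 769 CPM in KO footprints and 416 and 449 CPM in KO total RNA (0.83 ± 0.12), Sox2 was at 0.88 ± 0.13 and Nanog at 0.41 ± 0.11. With the CPM as deposited the calls of these 3 genes ended, at 0.15 for Pou5f1, 0.20 for Sox2 and -0.27 for Nanog, and the Nanog call also ended without KO footprint library 1, with quantile normalization and with a constant prior variance. At the low end Tfcp2l1, another factor of the naive state, had 498 and 449 CPM in KO footprints and 1530 and 1381 CPM in KO total RNA (-1.62 ± 0.12). Rex2 was at -3.82 ± 0.29, and 97.0% of its 28-base stretches occur in other genes.

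Cell cycle, chromatin and RNA processing lists each held members at both ends. Mitosis genes had 5 of 30 higher and 15 lower, with a median of -0.43, which was 0.05 below that of all members but 0.09 above it without KO footprint library 2 and 0.01 above it without KO RNA library 1. Mki67, which coats mitotic chromosomes, had 102 and 99.7 CPM in KO footprints and 1157 and 1124 CPM in KO total RNA (-3.48 ± 0.12, limma-trend adjusted p = 1.4e-12), and the motor gene Cenpe was at -2.91 ± 0.21, while the kinase Plk1 was at 1.77 ± 0.19. S phase genes had 15 of 40 higher and 8 lower (median 0.18), with Cdt1, which licenses origins, at 1.86 ± 0.15 and the polymerase subunit Pola1 at -1.82 ± 0.16. For p53 and its targets 7 of 19 were higher and 6 lower (median 0.09). Trp53 itself had 585 and 456 CPM in KO footprints and 118 and 129 CPM in KO total RNA (2.06 ± 0.15), and its target Trp53inp1 had 108 and 88.3 CPM in KO footprints and 676 and 653 CPM in KO total RNA (-2.75 ± 0.15). Splicing factors had 14 of 34 higher and 11 lower (median 0.19), with Sf1 at 2.39 ± 0.14 and Son at -1.83 ± 0.13. Genes of nonsense-mediated decay had 6 of 15 higher and 6 lower (median 0.21), and these included the helicase Upf1 (1.74 ± 0.15) and the kinase that phosphorylates its product, Smg1, with 96.4 and 101 CPM in KO footprints and 703 and 582 CPM in KO total RNA (-2.69 ± 0.14).

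Polycomb and NuRD genes had 7 of 22 higher and 8 lower (median 0.26), from Mbd3 (2.36 ± 0.20) to Mtf2 (-2.53 ± 0.16). Among the genes of DNA methylation 2 of 9 were higher and 3 lower (median -0.11). Tet1, which oxidizes methylcytosine, had 144 and 150 CPM in KO footprints and 1348 and 1049 CPM in KO total RNA (-3.01 ± 0.16, limma-trend adjusted p = 1.3e-10), Tet2 was at -1.93 ± 0.13 and Uhrf1, which guides maintenance methylation, at 0.98 ± 0.12, a call that ended with the CPM as deposited (0.30). Ribosome biogenesis genes had 9 of 26 higher and 8 lower (median -0.01), with the RNA methylase fibrillarin, Fbl, at 2.33 ± 0.15 and Utp20 at -0.97 ± 0.14. The largest family examined, 275 Zfp genes of the zinc finger class, had 10 members higher and 205 lower, with a median of -1.87 against -0.38 over all members. Zfp428 had 150 and 143 CPM in KO footprints and 33.5 and 25.2 CPM in KO total RNA (2.30 ± 0.26), and Zfp91 had 3.29 and 2.35 CPM in KO footprints and 157 and 163 CPM in KO total RNA (-5.41 ± 0.30). A readthrough row that joins Zfp91 to Cntf held 36.6 and 47.0 CPM in KO footprints and 0 and 6.53 CPM in KO total RNA, so reads of Zfp91 may have been divided between the rows.

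**Figure D3:**
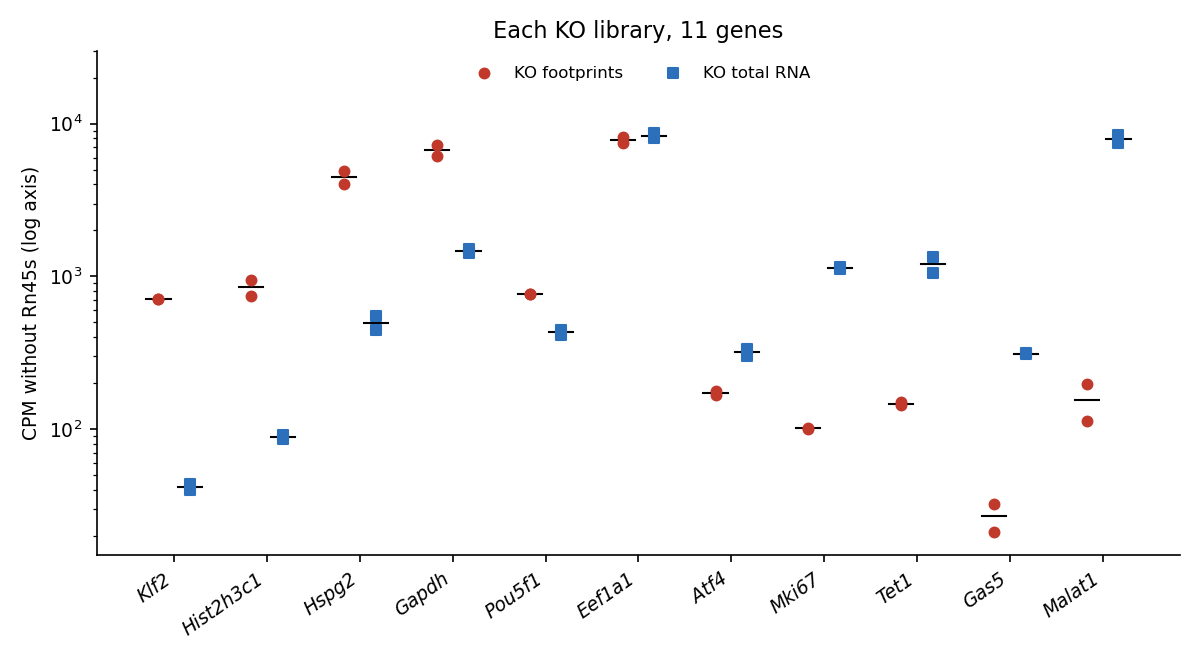
CPM in each KO library (log axis) of 11 genes, footprints as red circles on the left and total RNA as blue squares on the right of each gene, with the mean of 2 libraries as a black bar. Footprints exceed RNA in both libraries for Klf2, Hist2h3c1, Hspg2, Gapdh and Pou5f1, overlap it for Eef1a1, and lie below it for Atf4, Mki67, Tet1, Gas5 and Malat1.

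The highest ratios by the naming rule beyond those above came from genes of several kinds. The splicing factor Sf3a2 had 210 and 214 CPM in KO footprints and 14.7 and 10.2 CPM in KO total RNA (4.01 ± 0.30), and Pcbp1, which binds poly(C) stretches, had 962 and 851 CPM in KO footprints and 64.5 and 48.3 CPM in KO total RNA (3.99 ± 0.18). C1qbp, a protein of the mitochondrial matrix, was at 3.30 ± 0.13 and the phosphatase Pgp at 3.30 ± 0.37. Churc1 had 611 and 961 CPM in KO footprints and 35.7 and 62.2 CPM in KO total RNA (3.99 ± 0.22), but 70.5% of its 28-base coding stretches also occur in Fntb, which overlaps it. Lars2, the mitochondrial leucine enzyme, held the most footprints of all members, with 13784 and 19347 CPM in KO footprints and 2653 and 684 CPM in KO total RNA (3.60 ± 0.59, limma-trend adjusted p = 7.1e-05). Its RNA libraries differed widely, and its ratio was 4.57 without RNA library 1 and 2.62 without RNA library 2. Only totals per gene were used, so whether the footprint reads of Lars2 lay in its coding sequence is not known. The ratio of Pgp, with 51.9 and 61.7 CPM in KO footprints and 8.17 and 2.72 CPM in KO total RNA, was 3.95 without RNA library 1 and 2.65 without RNA library 2. After Lars2, Fn1, Eef1a1, Actb, Gapdh, Hsp90ab1, Hsp90aa1 and Hspg2 held the most, and Actb had 7942 and 7196 CPM in KO footprints and 2362 and 2351 CPM in KO total RNA (1.68 ± 0.11), with 37.5% of its 28-base coding stretches found in other genes.

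Several genes annotated as protein-coding had abundant RNA and almost no footprints. Zfp488, at chr14:33967070-33978764 on GRCm38, had 1.15 and 0 CPM in KO footprints and 2486 and 2179 CPM in KO total RNA (-10.63 ± 0.33, limma-trend adjusted p = 3.9e-13). Cmah, which in mice makes a sialic acid that humans lack, had 2.02 and 5.87 CPM in KO footprints and 2103 and 2211 CPM in KO total RNA (-8.89 ± 0.31). Cd84, a receptor of immune cells, had 0.666 and 0 CPM in KO footprints and 414 and 456 CPM in KO total RNA (-8.40 ± 0.34). At the estimated depth 0.666 and 0.950 CPM are 1 read in the first and the second KO footprint library, so these ratios depend on the 1 CPM added before taking logs. Adarb2 (354 and 289 CPM in KO total RNA), Vmn1r58 (136 and 116 CPM) and Ap1s3 (106 and 107 CPM) were listed at 0 in both KO footprint libraries, and 63.8% of the 28-base coding stretches of Vmn1r58 occur in other genes. The odorant receptor gene Olfr613 had 0 and 2.80 CPM in KO footprints and 590 and 549 CPM in KO total RNA. Ccdc82 had 2.62 and 10.5 CPM in KO footprints and 678 and 595 CPM in KO total RNA, and Grk4, Dcdc2c and Colec12 had ratios of -6.29, -5.63 and -5.50. Without footprint library 1 the ratio was -8.29 for Cmah, -7.23 for Olfr613, -5.79 for Ccdc82 and -5.68 for Grk4, and without footprint library 2 it was -9.48, -9.16, -7.46 and -6.89 in the same order. The annotated coding sequence is 23.6% of the transcript of Zfp488, 17.7% of that of Cmah and 9.20% of that of Vmn1r58, against a median of 52.4% over the coding members, but 71.6% of that of Grk4. In all, 180 members were listed at 0 in both KO footprint libraries, 113 of them protein-coding, and 213 more in 1 of the 2. Rprl3, an RNA of the RNase P family, was among the lowest noncoding rows, with 14.1 and 28.7 CPM in KO footprints and 3119 and 2882 CPM in KO total RNA.

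Across coding members the ratio moved with features of the transcript that the rule did not use. Spearman's rho of the KO ratio across genes was 0.47 with the share of G or C at the third codon position (10006 genes), and -0.44 with transcript length, -0.36 with 3′ UTR length, -0.28 with coding length and -0.12 with 5′ UTR length (10192 genes). Genes share libraries, and base composition and length also differ between the genes read by either method, so these are descriptions. In the quintile of genes with the least G or C at the third position the median ratio was -1.33, and in the following quintiles it was -0.66, -0.29, 0.06 and 0.33. The numbers called were 64 higher and 1435 lower in the lowest quintile, and 745 higher and 279 lower in the highest. From the shortest to the longest quintile by 3′ UTR the medians were 0.24, 0.04, -0.32, -0.63 and -1.04. With footprints counted per base of coding sequence and RNA per base of transcript, rho was 0.44 with G or C at the third position, 0.05 with 3′ UTR length, -0.28 with transcript length and -0.55 with coding length. With the coding share of the transcript rho was 0.13 before and -0.40 after that scaling. The scaling divides by this share, so the values after it for lengths and share are in part set by the scaling itself. The Zfp genes had a median of 46.9% G or C at the third position and replication-dependent histones 89.0%, against 59.4% over the coding members. Per base of each, the list medians were 1.57 below and 1.89 above that of the coding members, on the log2 scale. Serine codons, which the tRNAs modified by METTL6 read, are of 2 kinds, and rho of the KO ratio was -0.16 with the share of AGC and AGT codons and -0.19 with that of TCN codons, where N is any base. For the WT ratio these values were -0.11 and -0.15. Of the other features, rho of the WT ratio was 0.51 with G or C at the third position and 0.11 with the coding share. It was -0.41 with transcript length, -0.34 with 3′ UTR length, -0.28 with coding length and -0.07 with 5′ UTR length. Differences between the KO and WT values of rho were not tested.

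**Figure D4:**
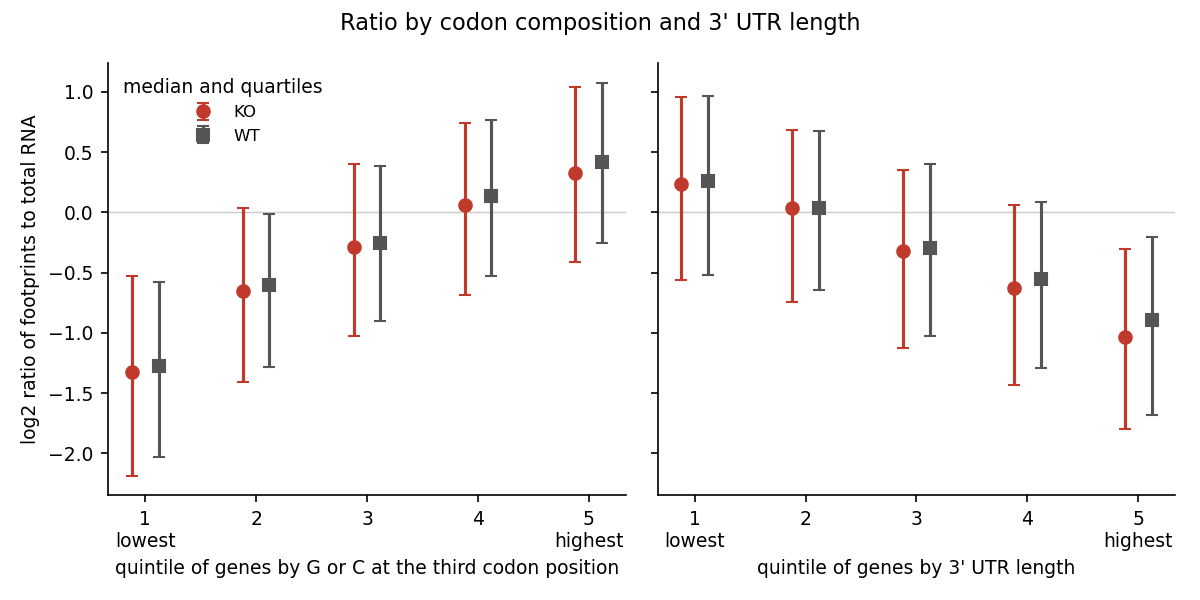
Median log2 ratio of footprints to total RNA with quartiles (bars) in quintiles of the coding members, by G or C at the third codon position (left) and by 3′ UTR length (right), KO as red circles and WT as grey squares beside them. The KO median is -1.33 in the lowest and 0.33 in the highest quintile by G or C, and 0.24 in the shortest and -1.04 in the longest quintile by 3′ UTR, and the WT medians follow the same course.

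The WT libraries allow a test of whether a ratio differed between the genotypes. Over the 9904 members that also reached the cutoff in WT total RNA, the KO and the WT ratio correlated at Pearson's r = 0.92 and Spearman's rho = 0.91 across genes, with medians of -0.35 in KO and -0.33 in WT. Among the lists at either end the WT medians were 1.98 for replication-dependent histones, -4.15 for nuclear and imprinted long noncoding RNAs, 1.54 for the extracellular matrix list and -1.82 for Zfp genes, over the members that reached the cutoff in WT total RNA. The KO median lay furthest below the WT one for the 4 m3C genes (-0.81 in KO and -0.24 in WT), host genes of small nucleolar RNAs (-1.91 and -1.50), pluripotency genes (0.05 and 0.47) and polyamine genes (-0.76 and -0.38). It lay furthest above for aminoacyl-tRNA synthetases (0.58 in KO and 0.28 in WT), cytosolic chaperones (0.44 and 0.15) and solute carriers (-0.05 and -0.34). KO medians are over all members of a list, and WT medians only over those past the cutoff in WT total RNA. For solute carriers these were 160 and 152 genes, and for polyamine genes 11 and 10, so part of a gap can come from the genes left out. These differences between list medians were not tested, and 0 genes of these 7 lists passed the test described next. The difference between the ratios, tested in the same fit, passed an adjusted p of 0.05 in 5 of 10525 members (0.0475%), 3 higher and 2 lower in KO; at an unadjusted p below 0.05 there were 431 higher and 624 lower.

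Chd4, the remodelling ATPase of NuRD, had 410 and 412 CPM in KO footprints and 985 and 1010 CPM in KO total RNA, against 598 and 581 CPM in WT footprints and 702 and 642 CPM in WT total RNA. Its ratio was -1.28 in KO and -0.19 in WT, a difference of -1.09 ± 0.16 (SE; limma-trend interaction, adjusted p = 0.0083). Srrm2, a scaffold of nuclear speckles, had 575 and 583 CPM in KO footprints and 1426 and 1058 CPM in KO total RNA, against 641 and 624 CPM in WT footprints and 511 and 522 CPM in WT total RNA (difference -1.38, limma-trend adjusted p = 0.0078). In both genes KO had fewer footprints and more RNA than WT in every library. Rpph1, the RNA of RNase P, which trims tRNA precursors, had 524 and 1250 CPM in KO footprints and 6076 and 6345 CPM in KO total RNA, against 223 and 244 CPM in WT footprints and 9266 and 9491 CPM in WT total RNA (difference 2.39, limma-trend adjusted p = 0.0078). Its KO ratio was -2.94, and -2.31 without footprint library 1 and -3.56 without footprint library 2, with a difference from WT of 3.01 or 1.76. Rpph1 does not code for protein, so this ratio does not measure ribosome load per message. Where its footprint reads came from was not tested. Gm20594 (2.63) and 6820431F20Rik (1.95) complete the 5 and were named after their values were seen, and the difference of Gm20594 was 3.22 without KO footprint library 1 and 2.04 without KO footprint library 2. None of the 5 passed on leaving out any 1 of the 4 RNA libraries, nor with no filter on low values or a constant prior variance. Without WT footprint library 2 there were 13 higher and 8 lower, and without KO footprint library 1 or 2 there were 2 or 1 higher and 0 lower. Genes with small p that missed the threshold were Lars2 (difference 3.66, limma-trend adjusted p = 0.21), Rps15a (0.94, 0.21), Ccdc47 (1.05, 0.21) and Hist1h3i (1.10, 0.25) among those higher in KO, and Pabpc1 (-1.09, 0.065), Zfp277 (-1.45, 0.073) and Zan (-4.49, 0.090) among those lower. With a pseudocount of 5 the differences of Pabpc1, Zfp277, Zan and Lars2 passed (limma-trend adjusted p = 0.016, 0.016, 0.038 and 0.043), and without WT footprint library 2 those of Pabpc1 and Rps15a did. The Lars2 difference was 4.64 without KO RNA library 1, 2.68 without KO RNA library 2, 5.0 without WT RNA library 1 and 2.32 without WT RNA library 2.

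**Figure D5:**
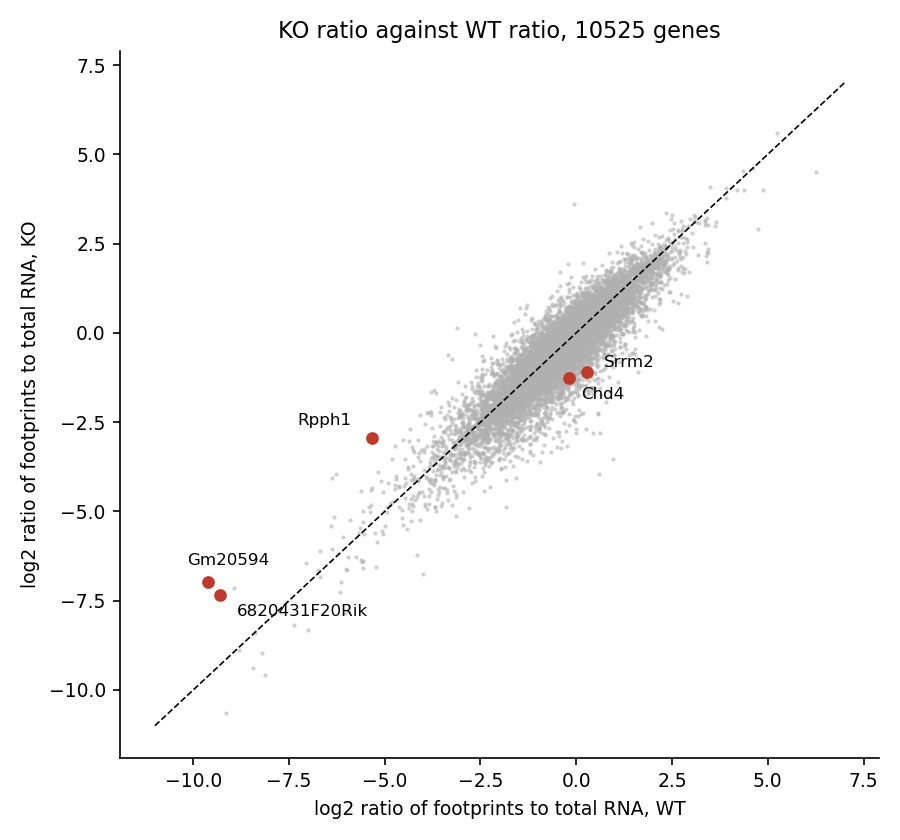
Log2 ratio of footprints to total RNA in KO cells (vertical) against that in WT cells (horizontal) for the 10525 members, with the dashed line at equal values. The 5 genes whose ratio differed are in red, Chd4 and Srrm2 below the line and Rpph1, Gm20594 and 6820431F20Rik above it.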

How the data were processed

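Total RNA and ribosome footprints of KO and WT cells were measured in 8 libraries. The authors deposited CPM values, which they derived from RSEM estimates after CASAVA 1.8.2 and alignment to mm10 with Bowtie2, per the submitters' processing notes; the annotation they used is not given in the sources used here. With the most frequent nonzero CPM value taken as a read, 73.8% to 90.5% of KO values were whole reads within 0.01 read. Counts could therefore not be recovered and no count test was used. Rn45s was dropped and each library rescaled to the same total. Values were tested as log2(CPM + 1) with limma-trend (limma 3.58.1, R 4.3.3) over 13156 genes averaging at least 1 CPM in the 4 KO libraries, in 1 fit of 4 group means with 4 residual degrees of freedom, and p-values were adjusted over those genes. An exact test over 2 libraries a group has no power here, so each p depends on the variance that limma pools over genes. A log2 ratio is a difference of log2(CPM + 1) and understates the change of low genes, while folds of summed classes are ratios of mean CPM. The fitting script was tested on simulated data.

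The genes and lists were chosen with earlier results of these data known, and nothing is supported by their choice. Genes were named by the largest and smallest ratios past the threshold with separate libraries and at least 20 CPM in 1 kind of library, the most footprints, the extremes of each list at 20 CPM of KO RNA, and a fixed set of genes; some genes that met this rule are not reported here. Lists carry no test. Gene classes and starts came from RefSeq GRCm38.p6 (10495 members matched) and coding, UTR and codon values from GENCODE on GRCm38 (10214). Deviations of same-numbered footprint and RNA libraries correlated at -0.0018 in KO and 0.0525 in WT. Library numbers were therefore not used as pairs in the main fit, though such values cannot show that the samples were unpaired. The alternatives were other pseudocounts, filters, scalings and prior settings, a fit of KO libraries alone, a replicate block, leaving out each library and, chosen after seeing the data, adding pseudogene rows.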

Additional observations from a re-analysis of the deposited data

Results flagged for a closer look

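Each of the 5 genes whose footprint to RNA ratio differed between KO and WT cells in the test of the difference is given here (limma-trend interaction, 2 libraries in each of 4 groups). The difference in log2 ratio, KO minus WT, was -1.088 for Chd4, -1.375 for Srrm2, 2.386 for Rpph1, 2.632 for Gm20594 and 1.947 for 6820431F20Rik. For Gm20594 there were 41.3 and 94.99 CPM in KO footprints and 8424 and 7629 CPM in KO total RNA, against 6.93 and 11.2 CPM in WT footprints and 8825 and 6691 CPM in WT total RNA. For 6820431F20Rik there were 12.5 and 8.43 CPM in KO footprints and 1820 and 1851 CPM in KO total RNA, against 0.939 and 2.40 CPM in WT footprints and 1542 and 1680 CPM in WT total RNA. Both rows carried much RNA and few footprints in either genotype, and their KO footprints lay above their WT footprints. Leaving out a KO footprint library moved the difference to 1.76 or 3.01 for Rpph1 and to 2.04 or 3.22 for Gm20594.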

How the results depend on the processing

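The counts against total RNA depend on scaling. In KO cells 2048 genes were higher and 4077 lower; the CPM as deposited gave 827 and 6338, and centred medians 3120 higher. Without 1 library the counts were 1625 to 2009 higher and 3380 to 4043 lower. With the replicate block they were 2095 and 4135, and for the KO minus WT difference 5 higher and 6 lower in place of 3 and 2. The block changed no call of a named KO ratio. Whether library numbers pair the samples cannot be told from these values. With the block the KO minus WT differences of Pabpc1, Zfp277 and Lars2 passed (limma-trend adjusted p = 0.012, 0.015 and 0.0029). That difference gave 0 higher and 0 lower with no filter and with a constant prior variance, 1 higher with protein-coding CPM, 1 lower with the CPM as deposited, 6 lower with quantile normalization, 4 lower with the members fitted alone and 15 lower at a pseudocount of 5. Without 1 library it gave 0 to 13 higher and 0 to 8 lower. The setting with protein-coding CPM gave 3 lower, and it leaves out Rpph1 and 6820431F20Rik, which are not classed as protein-coding. With the CPM as deposited the ratio turned to -0.31 for Sars, -0.019 for Oaz1, -0.060 for Fth1, -0.62 for Hsp90aa1 and -0.27 for Nanog; quantile normalization gave -0.41 for Hsp90aa1, centred medians 0.32 for Eef1a1, and added pseudogene rows 0.029 for Rpl31, 0.34 for Rpl14 and 0.030 for Rps15a. No other named gene changed sign. The cause was not tested. Low RNA limits the calls, since the threshold of 5 CPM is 6.12 and 7.35 reads in the KO RNA libraries.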

Other observations

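Genes below the RNA cutoff also held footprints. In KO cells 49 genes outside the rule averaged at least 20 CPM in footprints, 31 of them protein-coding. Cdkn2a, which encodes inhibitors of the cell cycle, had 33.9 and 46.5 CPM in KO footprints and 2.45 and 4.76 CPM in KO total RNA. Lefty1, an antagonist of Nodal signalling, had 47.2 and 20.6 CPM in KO footprints and 2.49 and 0.748 CPM in KO total RNA. Romo1, a small mitochondrial protein, had 25.3 and 29.4 CPM in KO footprints and 4.90 and 2.72 CPM in KO total RNA. Both footprint libraries lay above both RNA libraries in each, which follows largely from choosing genes by high footprints and low RNA.

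The rows outside the rule with the most footprints were not mRNAs. Gm25018, annotated as ribosomal RNA, had 14234 and 16258 CPM in KO footprints and 0 and 0.680 CPM in KO total RNA, against 8229 and 9029 CPM in WT footprints and 1.01 and 24.05 CPM in WT total RNA. Mir6240 had 7777 and 8476 CPM in KO footprints, against 345 and 584 CPM in WT footprints, and was listed at 0 in all 4 RNA libraries. Close to the cutoff, Gng3, H2-T10 and Rlbp1 were the members with the least RNA, at 5.01, 5.03 and 5.03 CPM, and Evc2, Ppt2 and Iqsec2 lay just outside at 4.97 CPM each. There were 370 members between 5 and 6 CPM and 418 genes between 4 and 5 CPM.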
